A study of Mus musculus with 84 samples.

Results

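The Gimap genes encode GTPases of immunity-associated proteins, and 6 of them (Gimap1, Gimap4, Gimap5, Gimap6, Gimap8 and Gimap9) are described here across 84 single cells sorted as endothelium from the mouse embryo. The 6 genes were taken by symbol from a table of 20308 genes, and they were chosen because earlier results on this table had brought the family up, so their levels are given as a description with no test. Of the family, 8 genes had a row in the table, the others being Gimap3 and Gimap7. Cells came from the aorta-gonad-mesonephros (AGM), the trunk region around the dorsal aorta, of E11.5 embryos (embryonic days), and were sorted as positive for CD31 (Pecam1) and CD144 (Cdh5), which mark endothelium, and negative for CD41 (Itga2b) and CD45 (Ptprc). No genotype, strain or treatment is given in the sources used here. Each sample was 1 cell, captured on a chip for cells of 10 to 17 µm, with full-length cDNA read single-end at 67 bp. The labels tie no cell to an embryo, which leaves 84 cells in 1 group that counts as 1 sample, and values carry the spread over cells, not a replicate error.

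GIMAP proteins share a GTP-binding domain of the AIG1 type, and their genes lie side by side in one cluster in mammals. They are best known from lymphocytes, where several members govern survival: loss of Gimap5 in rats and mice depletes T cells, Gimap1 is needed by mature T and B cells in mice, and Gimap4 has been tied to T cell death. Outside lymphocytes, Gimap5 has been described in liver endothelium of mice, and Gimap6 binds Gabarapl2, a protein of the autophagy machinery.

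In GRCm38, the assembly that the submitters' build mm10 names, the GENCODE M21 annotation placed all 8 genes on chromosome 6 between 48647186 and 48770851, a span of 123.7 kb. Along the chromosome the order was Gimap8 (48647186 to 48660875), Gimap9 (48676121 to 48679116), Gimap4 (48684578 to 48692062), Gimap6 (48701583 to 48708244), Gimap7 (48718621 to 48724636), Gimap1 (48739047 to 48743795), Gimap5 (48746197 to 48754200) and Gimap3 (48764464 to 48770851). Gimap6 and Gimap3 lay on the minus strand and the other 6 on the plus strand. The coding sequences held 873 to 984 bases in 7 of the genes and 2064 bases in Gimap8, whose protein carries repeated GTPase domains. Promoters of 3 members are shown because their transcripts, described below, represent the most abundant gene of the family in these cells (Gimap6), the gene with the widest gap between cells that held it and cells that did not (Gimap4) and the gene least related to endothelial transcripts (Gimap8). Each is 300 bases around a RefSeq start in GRCm38.p6, most of it upstream, 5′ to 3′ on the gene's own strand. Capitals mark GGAA or its reverse complement TTCC, the core letters that ETS transcription factors read.
Gimap6, chr6:48708195-48708494, minus strand: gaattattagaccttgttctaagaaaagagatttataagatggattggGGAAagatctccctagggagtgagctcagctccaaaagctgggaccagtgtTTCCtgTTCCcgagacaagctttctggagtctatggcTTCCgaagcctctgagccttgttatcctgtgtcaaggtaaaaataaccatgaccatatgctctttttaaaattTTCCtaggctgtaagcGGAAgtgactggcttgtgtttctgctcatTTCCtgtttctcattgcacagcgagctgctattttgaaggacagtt
Gimap4, chr6:48684328-48684627, plus strand: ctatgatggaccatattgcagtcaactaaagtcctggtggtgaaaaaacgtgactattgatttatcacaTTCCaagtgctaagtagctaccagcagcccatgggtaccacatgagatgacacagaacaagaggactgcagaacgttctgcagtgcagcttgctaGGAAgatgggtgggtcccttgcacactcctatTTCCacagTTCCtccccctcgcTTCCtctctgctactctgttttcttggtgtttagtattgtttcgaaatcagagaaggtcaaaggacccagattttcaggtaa
Gimap8, the inner of its RefSeq starts, chr6:48647111-48647410, plus strand: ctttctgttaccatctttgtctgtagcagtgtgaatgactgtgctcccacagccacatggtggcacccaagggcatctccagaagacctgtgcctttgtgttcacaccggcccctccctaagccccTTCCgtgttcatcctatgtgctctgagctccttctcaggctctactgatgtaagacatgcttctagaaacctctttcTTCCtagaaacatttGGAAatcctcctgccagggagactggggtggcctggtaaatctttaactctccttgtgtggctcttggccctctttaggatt
The Gimap6 window held the letters 7 times, the Gimap4 window 5 times and this Gimap8 window 3 times, and the window at the outer Gimap8 start held them 1 time. The windows of Gimap5, Gimap9 and Gimap1 held 8, 6 and 6. Over 32851 RefSeq promoter windows of the same length, counting both strands, 96.0% held GGAA at least 1 time, with a median of 3 and quartiles of 2 and 5. Fewer matches than in Gimap6 were found in 92.0% of all windows, and fewer than in Gimap5 in 96.3%. Binding letters of other endothelial factor families were rarer. Those of GATA factors, written AGATAA and held by 11.2% of all windows on either strand, were in none of the 9 Gimap windows. The forkhead letters TGTTTAC, held by 3.65%, were in the Gimap3 window only. The SOX core ACAAT, held by 31.02%, was in the Gimap9 and Gimap4 windows. A match is a run of letters and not a measured binding site.

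The table gives TPM, transcripts scaled to the same total in each cell, so the number of reads behind a value is unknown and a 0 can be an absent or a missed transcript. Cells held between 3334 and 10073 genes at TPM 1 or more, with a median of 6978. The sort label was checked against 17 pan-endothelial genes: 77 cells held at least 10 of them at TPM 10 or more, none held 9, 4 held just 10, and 7 cells held 0 to 8. Of the 7, 6 also held at least 3 of 11 mesenchyme markers at TPM 10. Of these 7 cells, 4 held neither Pecam1 nor Cdh5, the genes of the sorted proteins, at TPM 10. Cell 14 held 58.9 TPM of Pecam1 and 90.9 TPM of Cdh5, cell 78 held 11.7 and 15.9, and cell 39 held 14.5 and 2.08. The correlations and class differences that rest on the 7 cells most are also given without them. Itga2b, the gene of the CD41 protein sorted against, was detected in 7 cells, up to 686 TPM, and Ptprc in 0. The libraries carried 12 first-index sequences and 7 second-index sequences, the latter with 12 cells each. Cells were grouped by the second index only, and the median number of Gimap members per cell was 4 or 5 in every set.

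Gimap transcripts were present in every cell. A gene was called detected at TPM 1, and all 84 cells held at least 2 of the 6 members. The median was 5 members per cell, with 3 cells holding 2 members, 8 holding 3, 21 holding 4, 25 holding 5 and 27 holding all 6 (32.1% of cells, exact 95% interval 22.4% to 43.2%, which covers counting error over cells only, as do all intervals here). The most frequent combination after all 6 was the same set without Gimap5, in 14 cells, followed by Gimap1, Gimap4, Gimap6 and Gimap8, in 11 cells. At TPM 10 the median was 4 members, and 2 cells held none. The summed TPM of the 6 members spanned 9.40 (cell 65) to 2293 (cell 20), with a median of 796.

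Gimap6 was the dominant member. It was detected in 84 of 84 cells (100%, interval 95.7% to 100%), with a lowest value of 2.01 TPM, quartiles of 303 and 760, a median of 489 and a highest value of 1763 TPM. In 74 cells it reached TPM 100, and by mean TPM it ranked 288 of 20308 genes. It was the highest of the 6 members in 68 cells, against 13 cells for Gimap4, 1 cell each for Gimap1, Gimap8 and Gimap9, and 0 for Gimap5. Its share of the family's summed TPM had a median of 58.9% and spanned 3.39% (cell 39) to 97.3% (cell 70).

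Gimap4, the regulator of T cell death, ranked next but was not uniform. It was detected in 66 cells (78.6%, interval 68.3% to 86.8%), with quartiles of 1.53 and 345 TPM, a median of 148 and a highest value of 1063 TPM in cell 2. The values spread to both ends: 47 cells lay at TPM 100 or more, 11 between 10 and 100, 8 between 1 and 10, and 18 under 1, of which 13 were at 0. Among cells that held it, the median was 218 TPM.

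Gimap9, one of the less studied members, was detected in 53 cells (63.1%, interval 51.9% to 73.4%), from 0 to 279 TPM with quartiles of 0 and 90.6 over all cells and a median of 60.5 over cells that held it. Gimap5, the lysosomal survival factor of T cells, was detected in 43 cells (51.2%, interval 40.04% to 62.3%), from 0 to 209 TPM with a median of 1.65 over all cells and 35.8 over cells that held it. Both genes were therefore absent or under TPM 1 in a large share of cells, 31 for Gimap9 and 41 for Gimap5, and at moderate levels elsewhere.

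The remaining members were widespread at low level. Gimap1, which mature lymphocytes need, was detected in 76 cells (90.5%, interval 82.1% to 95.8%), from 0 to 224 TPM (cell 3) with a median of 18.5. Gimap8 was detected in 79 cells (94.0%, interval 86.7% to 98.0%), from 0 to 159 TPM (cell 45) with a median of 9.60, and it reached TPM 100 in 1 cell. The 2 genes thus had higher detection than Gimap4 and lower levels: 39 cells held Gimap8 and 56 held Gimap1 at TPM 10, against 58 for Gimap4. By median TPM, which is scaled for transcript length, the order was Gimap6, Gimap4, Gimap1, Gimap9, Gimap8 and Gimap5. Gimap1, Gimap9 and Gimap8 lay close together, with interquartile ranges of 6.43 to 40.9, 0 to 90.6 and 4.62 to 19.2 TPM that overlapped. The lower places of this order depended on the measure and the cells. By mean TPM Gimap9 (46.97) lay above Gimap1 (37.7) and Gimap5 (26.5) above Gimap8 (14.9), and without mesenchyme-marked cells the median of Gimap5 was 11.2 TPM and that of Gimap8 8.79 TPM.

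**Figure D1:**
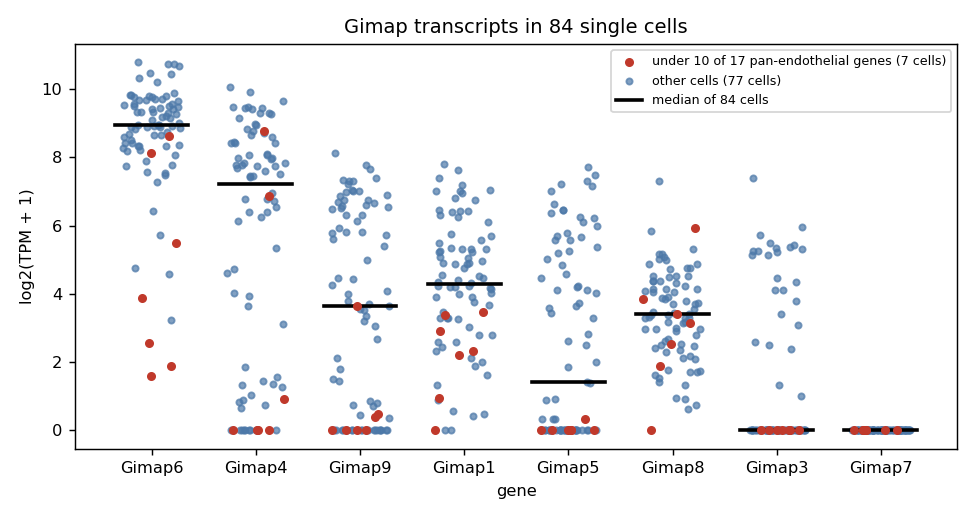
Levels of the 8 Gimap genes in the 84 cells, as log2(TPM + 1), with 1 point per cell and a bar at the median; red points are the 7 cells with under 10 of 17 pan-endothelial genes at TPM 10. Gimap6 is above 0 in every cell, Gimap4, Gimap9 and Gimap5 spread between 0 and high values, and Gimap7 is at 0 throughout.

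Of the family genes outside the 6, Gimap7 was listed at 0 in all 84 cells, which allows a share of cells with a detected transcript of up to 4.30%. Gimap3, a close relative of Gimap5 in mice and rats, was detected in 25 cells (29.8%, interval 20.3% to 40.7%), up to 167.99 TPM in cell 6. Of these 25 cells, 24 also held Gimap5, where independent detection gives 12.8, and 1 cell held Gimap3 without Gimap5. Gimap5 was found without Gimap3 in 19 cells, and Gimap3 exceeded Gimap5 in 5 cells. Over the 84 cells the 2 genes had a Pearson r of 0.63 on log2(TPM + 1), higher than any pair of the 6 members.

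The coding sequences of Gimap3 and Gimap5 were 91.2% identical over their alignment, while every other pair of the 8 genes lay between 56.8% and 67.2%. Their longest identical stretch, 140 coding bases, is printed because a read of 67 bases inside it cannot be assigned to either gene. It lies at chr6:48752684-48752823 on the plus strand in Gimap5 and at chr6:48765681-48765820 on the minus strand in Gimap3, and capitals are not used since all its bases are shared.
Gimap5 and Gimap3, shared coding stretch: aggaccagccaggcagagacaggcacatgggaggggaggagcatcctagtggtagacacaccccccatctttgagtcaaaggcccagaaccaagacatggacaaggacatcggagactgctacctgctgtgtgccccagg
Of all 67-base windows in the annotated transcripts, 107 were common to both genes, which was 2.54% of the Gimap5 windows and 4.26% of the Gimap3 windows. No such window was shared between any other pair of the 8 genes, so the split of reads between Gimap5 and Gimap3 is uncertain, and its part in their correlation was not tested. Gimap1 overlaps the antisense gene Gimap1os, which had no row, over 31.2% of its windows. The read-through gene Gm28053 shared 4.21% of the Gimap1 windows and 2.09% of the Gimap5 windows. The strand of reads is not given in the sources used here, so reads in the windows shared with Gimap1os cannot be assigned to Gimap1 or to its antisense partner.

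Correlations from cell to cell were taken for each pair of members of the gene cluster. The 15 pairs of the 6 members had a median Pearson r of 0.19 on log2(TPM + 1) over the 84 cells, and 13 pairs were positive. No share over all gene pairs was computed beside these values. For scale, the highest r with any ranked gene outside the family was 0.82 for Gimap6 and 0.52 for Gimap4. It was 0.49 for Gimap1, 0.49 for Gimap5, 0.45 for Gimap9 and 0.42 for Gimap8. All correlations here are descriptions over 84 cells that share a sorting gate, a chip size range and a scaling to a fixed total. They carry no p-value. The highest values linked Gimap5 with Gimap6 (r = 0.38), Gimap4 with Gimap5 (0.36), Gimap4 with Gimap6 (0.34), Gimap1 with Gimap6 (0.31) and Gimap6 with Gimap9 (0.30). Gimap8 stood at the low end, with r of -0.10 to Gimap5 and -0.02 to Gimap4, and its highest value, with Gimap9, was 0.16. Without the 7 cells low in pan-endothelial genes the median over pairs was 0.12.

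Joint detection was compared with what independent detection gives. Gimap6 reached TPM 10 in 80 cells, so in its 5 pairs the ratio of observed to independent joint detection could hardly leave 1, and these pairs are left aside. In the other 10 pairs the number of cells holding both members at TPM 10 was 0.887 to 1.24 times the number that independence gives, with a median of 1.05. The highest ratio belonged to Gimap4 and Gimap5, found together in 29 cells where independence gives 23.5, and the lowest to Gimap5 and Gimap8, found together in 14 cells where independence gives 15.8.

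Cells at either end of the Gimap4 range were set side by side. Among the 47 cells at TPM 100 or more, 30 held Gimap5, against 6 of the 26 cells under TPM 10. Gimap6 had a median of 636 TPM in the cells high in Gimap4 and 364 TPM in the cells low in it. Gimap9 was detected in 33 of the 47 cells high in Gimap4 and in 13 of the 26 cells low in it. Gimap1 had medians of 28.5 TPM in the cells high in Gimap4 and 15.7 TPM in the cells low in it. Gimap8 did not follow, with medians of 8.82 TPM in the cells high in Gimap4 and 9.71 TPM in the cells low in it. Endothelial transcripts moved with the split: all 17 pan-endothelial genes had a higher median in the cells high in Gimap4, with differences of 0.37 to 2.26 log2 units, of which 14 were 1 or more, where 11.6% of all genes tested were higher by that much and 2.54% lower. Erg, Tie1 and Eng differed by under 1 unit, with medians of 14.9, 18.8 and 49.2 TPM in the high cells and 14.2, 16.1 and 48.6 TPM in the low ones. Pecam1 had a median of 178 TPM in cells high in Gimap4 and 109 TPM in cells low in it, and Emcn, a sialomucin of capillaries and veins, 1171 TPM in the high cells and 440 TPM in the low ones. Mesenchyme transcripts moved the other way, since 11 of the 47 cells high in Gimap4 and 18 of the 26 cells low in it held at least 3 mesenchyme markers at TPM 10. The summed mesenchyme markers had medians of 2.81 TPM (0.04 to 1782) in the high cells and 352 TPM (0.24 to 2847) in the low ones. Their part in the differences among the members was not tested.

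The 7 cells low in pan-endothelial genes were spread unevenly over the Gimap4 range, with 2 among the 47 high cells and 5 among the 26 low ones. Leaving them out kept 45 high cells and 21 low ones, of which 10 and 13 were mesenchyme-marked. Gimap5 then differed by 1.92 log2 units between high and low cells, against 2.05 with all cells. The difference of Gimap6 was 0.64 without those cells and 1.31 with all cells, so it no longer reached 1 unit. That of Gimap1 was 0.60 without them and 0.85 with all cells, and that of Gimap9 was 0.35 without them and 0.90 with all cells. Of the 17 pan-endothelial genes, 7 still differed by 1 unit or more, with a range of -0.30 to 1.54, where 8.47% of all genes tested were higher by that much and 3.92% lower.

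**Figure D2:**
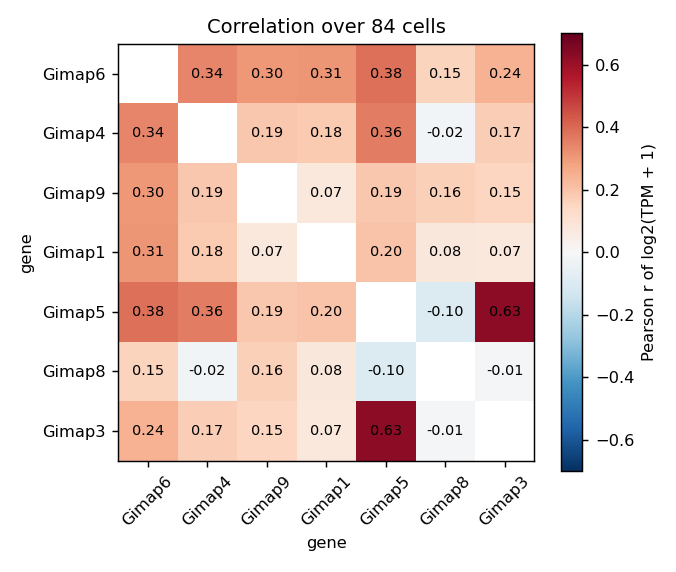
Pearson r of log2(TPM + 1) over 84 cells for each pair of 7 Gimap genes, on a colour scale from blue (negative) to red (positive). The pair of Gimap5 and Gimap3 (0.63) exceeds all pairs among the 6 members, which lie between -0.10 and 0.38.

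The family was next set against endothelial genes. The mean log2(TPM + 1) of the 6 members had r = 0.72 with that of the 17 pan-endothelial genes over 84 cells (Spearman's rho 0.66), and 0.58 without the 7 cells low in those genes. A mean over many genes has less noise than a single gene, so this value is not comparable with those between single members. Within the 7 index sets r spanned 0.44 to 0.85. The number of genes detected per cell, which moves with RNA content and read depth, had r = 0.40 with the family mean and 0.31 with the pan-endothelial mean. With that number held fixed, the partial correlation of the family mean with the pan-endothelial mean was 0.69.

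Of the single members Gimap6 had the highest value. Its r with the pan-endothelial mean was 0.74, the 9th highest among 9683 genes detected in at least 20 cells, the pan-endothelial genes included, whose median was 0.07. For scale, r of 0.5 or more with the pan-endothelial mean was reached by 1.19% of 9660 genes outside both lists and by 1 of the 6 members. Gimap1 and Gimap4 had r = 0.43 each, Gimap5 0.41 and Gimap9 0.39, at ranks 231 to 328. Gimap8 had r = 0.11, at rank 3652. Without the 7 cells the values were 0.46 for Gimap6, 0.39 for Gimap1, 0.35 for Gimap4, 0.33 for Gimap5, 0.26 for Gimap9 and 0.04 for Gimap8. The order of the members was the same with and without the 7 cells, and the value of Gimap6 moved the most. With each member left out of the family mean in turn, r with the pan-endothelial mean spanned 0.65 (without Gimap6) to 0.72.

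**Figure D3:**
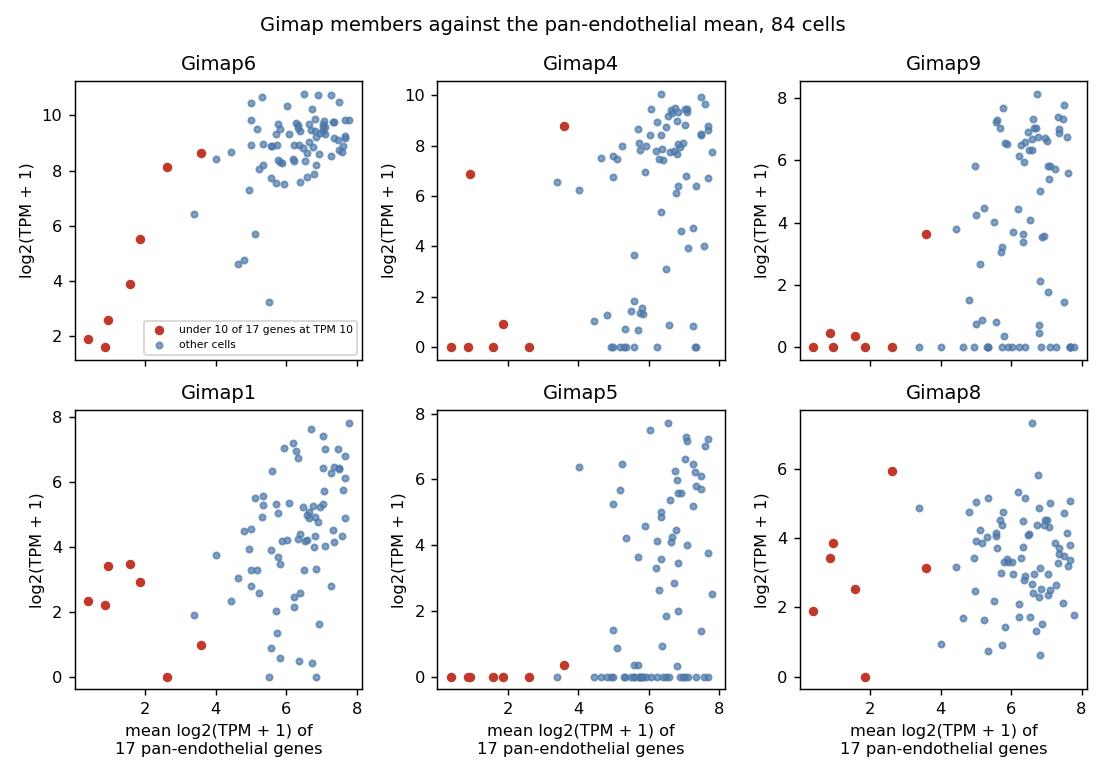
Each member's log2(TPM + 1) against the mean log2(TPM + 1) of 17 pan-endothelial genes, 1 panel per member and 1 point per cell (84 cells), with the 7 cells low in pan-endothelial genes in red. Gimap6 is low in most of the red cells and high in nearly all others, while Gimap8 shows no such gap.

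The 7 cells differed among themselves. Cell 65 held 0 of 17 pan-endothelial genes at TPM 10, and its Gimap6 was 2.68 TPM with Gimap4, Gimap5 and Gimap9 at 0. Cell 23 had the lowest Gimap6 of all, 2.01 TPM, with 1 pan-endothelial gene at TPM 10. Cell 39 held 4.91 TPM of Gimap6 but 117 TPM of Gimap4. At the upper end, cell 14, with 8 pan-endothelial genes at TPM 10, held 395 TPM of Gimap6 and 438 TPM of Gimap4. Low Gimap6 was also found in cells that held at least 10 pan-endothelial genes. Cell 79 held 8.33 TPM of Gimap6 beside 14 pan-endothelial genes at TPM 10 and 327 TPM of Egfl7, and cells 54, 84, 41 and 38 held 23.2, 26.1, 51.5 and 84.5 TPM of Gimap6 beside 10, 11, 13 and 10 pan-endothelial genes. Cells 54, 84 and 38 also held 5, 5 and 9 mesenchyme markers at TPM 10, and cells 79 and 41 held 0 and 1.

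By single genes, the transcript most like the family mean was Vamp5, a vesicle SNARE protein (r = 0.69), followed by Pecam1 (0.68), the transcriptional repressor Bcl6b (0.65), the Ras activator Rasgrp3 (0.64) and the G protein subunit Gngt2 (0.63). Cdh5, the VEGF receptor Kdr and the G protein subunit Gng11 each had r = 0.62, and the secreted factor Egfl7 had 0.60. Of 9676 genes outside the family, 0.682% reached r of 0.5. At the other end were the glypican Gpc3 (-0.52), the retinoic acid binding protein Crabp2 (-0.50), the collagen chain Col1a2 (-0.49), the histone gene H3f3b (-0.49) and the sulfatase Sulf2 (-0.48). Without the 7 cells, Vamp5 had r = 0.62, Gngt2 0.54, Gng11 and Bcl6b 0.52, and Pecam1 0.50, while Cdh5 had 0.38 and Egfl7 0.33. With those cells left out, 5 of the 10 most similar genes remained among the 10.

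The members had different nearest transcripts. Gimap6 was closest to endothelial genes, with r = 0.82 to Egfl7, 0.79 to Ramp2, a partner of the adrenomedullin receptor, and 0.75 to Ecscr, and 84 genes reached r of 0.5 with it. With the 7 cells low in pan-endothelial genes left out these values were 0.57 for Egfl7, 0.61 for Ramp2 and 0.37 for Ecscr, and 13 genes reached 0.5. Gimap4 was closest to Marc2, a mitochondrial reductase (0.52), Vamp5 (0.50) and Rasgrp3 (0.50). Gimap1 was closest to the angiopoietin receptor Tek (0.49), the vomeronasal receptor gene Vmn1r65 (0.47) and Pecam1 (0.46). Gimap5 was closest to the peptide ligand Apln (0.49), the mitochondrial ADP/ATP carrier Slc25a5 (0.46) and the small GTPase Rap2a (0.44). Gimap9 was closest to the class I histocompatibility gene H2-D1 (0.45), the endothelial GTPase Rhoj (0.43) and the adhesion molecule Icam2 (0.43). Gimap8 was closest to Uqcrh, a respiratory chain subunit (0.42), the kinase Snrk (0.40) and 4933427D14Rik (0.39). Apart from Gimap6 and, for 1 gene, Gimap4, no member had a gene at r of 0.5 or more over all 84 cells.

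**Figure D4:**
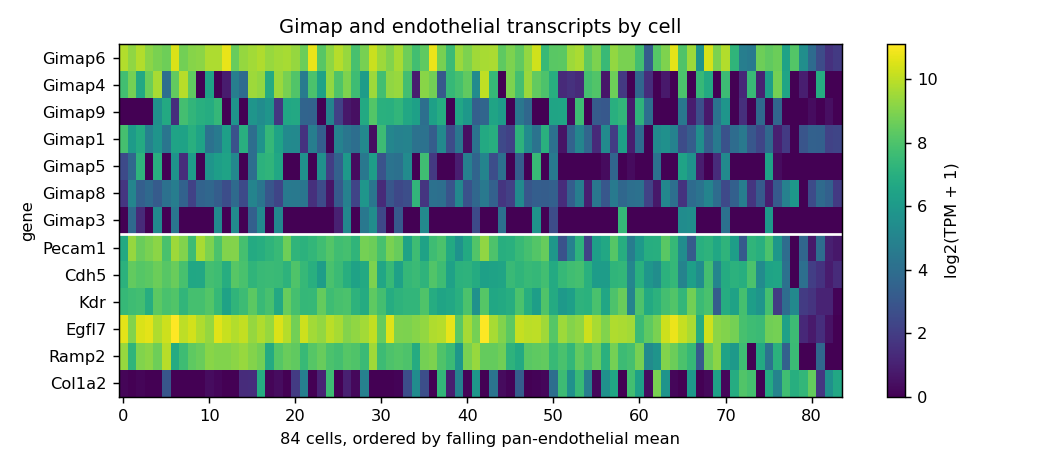
Levels of 7 Gimap genes (upper rows) and of 6 comparison genes (lower rows) in 84 cells as log2(TPM + 1), with cells in columns ordered by falling mean of 17 pan-endothelial genes. The band of Gimap6 holds across nearly all columns and darkens at the right end with Egfl7 and Ramp2. The collagen gene Col1a2 is present there and also in columns further left, reaching TPM 10 in 33 cells.

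All 17 pan-endothelial genes were positively related to the family mean, with r of 0.35 (Erg) to 0.68 and a median of 0.51, against a median of 0.07 over all genes, and 10 of the 17 reached r of 0.5. In order, these were Pecam1, Cdh5, Kdr, Egfl7, Emcn (0.60), the guidance receptor Robo4 (0.58), the ETS factor Fli1 (0.55), Tek (0.54), the junction protein Esam (0.51) and Cd34 (0.50). Below them came Ets1 (0.46), the VEGF receptor Flt1 (0.43), Cldn5 and Eng (0.39 each), Sox18 (0.38), Tie1 (0.37) and Erg. When the 7 cells low in pan-endothelial genes were left out, all 17 were still positive but 0 reached r of 0.5: the median was 0.34, from 0.07 (Erg) to 0.4996 (Pecam1), against a median of 0.04 over all genes, of which 10 of 9676 then reached 0.5. Of 20 endothelial transcription factors, 18 were positive, with a median r of 0.37, and 5 reached 0.5: Bcl6b, the ETS factor Elk3 (0.56), the MADS-box factor Mef2c (0.55), the LIM protein Lmo2 (0.55) and Fli1. Meis2 was the lowest of them, at -0.20. Erg, Fli1, Ets1 and Sox18 are in this list and in the pan-endothelial one. Over the other 77 cells the median of the 20 factors was 0.25, and 19 were positive, as were 5830 of all 9676 genes. Of the factors, 2 then reached 0.5, Bcl6b (0.52) and Mef2c (0.51), while Fli1 had 0.34, Elk3 0.33 and Lmo2 0.32.

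Vessel subtype lists related more weakly to the Gimap mean. Detection varied widely within them, from Ccl21a in 22 cells, Gja4 in 23 and Dll4 in 29 to Notch1 in 76 and Nrp1 in 78. Each pan-endothelial gene was detected in 60 (Sox18) to 84 (Emcn) cells. The part of detection in the weaker values was not tested. Of 12 arterial genes detected in at least 20 cells the median r was 0.16, with Notch1 (0.41), Epas1 (0.34) and Nrp1 (0.24) highest and Hey1 (-0.11) lowest. Of 8 venous genes the median was 0.25, with the apelin receptor Aplnr (0.52), the scavenger receptors Stab1 (0.48) and Stab2 (0.32) highest and Dab2 (0.02) lowest. Of 5 lymphatic genes the median was 0.14, with the VEGF-C receptor Flt4 (0.54), Ccl21a (0.16, a gene with near-identical copies whose value is uncertain) and Prox1 (0.14) highest and Pdpn (-0.28) lowest. Of 6 hemogenic genes the median was 0.23, with Lmo2, Lyl1 (0.35) and Tal1 (0.24) highest and Neurl3 (-0.10) lowest. The 16 genes of the G2 and M phases of the cell cycle had a median r of -0.04 and lay between -0.18 (Aurka) and 0.09 (Bub1). Over the 77 cells not low in pan-endothelial genes the medians were 0.07 for arterial, 0.09 for venous, 0.02 for lymphatic, 0.15 for hemogenic and 0.03 for G2M genes, with Notch1 at 0.20, Aplnr at 0.38, Flt4 at 0.30 and Lmo2 at 0.32.

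Since Gimap genes are best known from lymphocytes, lymphocyte markers were examined in the same cells. Of 18 markers, 11 were detected in at least 1 cell, and their summed level spanned 0 to 521 TPM with a median of 66.8. Ptprc (CD45), the T cell receptor chain gene Cd3g, the B cell gene Ms4a1 and Cd2 were at 0 in all 84 cells, and Cd3e, Il7r and Cd4 stayed under TPM 1. Lck, a kinase of T cells, was detected in 40 cells up to 385 TPM, Lat, an adaptor of T cells, in 45 cells up to 379 TPM, Cd3d in 69 cells with a median of 4.89 TPM and Cd8a in 62 cells with a median of 2.84 TPM. The 5 lymphocyte markers detected in at least 20 cells had a median r of 0.03 with the family mean, with and without the 7 cells low in pan-endothelial genes, with Lck (0.19) and Lat (0.18) highest and Rag2 (-0.17) lowest. The low but widespread values of Cd3d and Cd8a lay in the range of Gimap8, whose median was 9.60 TPM, and what such values reflect was not tested.

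Genes of most other blood and tissue lists were found in few cells. Of 10 macrophage genes, 8 were detected in at least 1 cell, led by the chemokine receptor Cx3cr1 in 47 cells at up to 6.42 TPM (r = 0.13 with the Gimap mean), and C1qb and C1qc were at 0 in all cells. Among 7 megakaryocyte or platelet genes Pf4 was found in 18 cells, up to 35696 TPM, and the summed level of the list reached 50974 TPM in 1 cell and had a median of 0, and among 10 erythroid genes Alas2 was found in 14. Epithelial or mesonephric genes were led by Epcam (7 cells). Of the 7 neural or sympathetic genes, Stmn2 (25 cells, r = 0.09 with the Gimap mean) and Elavl4 (21 cells, r = -0.26) were the most frequent. Pdgfrb, the one of 8 smooth muscle genes found in at least 20 cells, had r = -0.25 with the Gimap mean.

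Genes tied to GIMAP function in other cells were expressed but weakly related to the family. All 14 survival and autophagy genes were detected in at least 20 cells, with a median r of 0.12, none reaching 0.5. The apoptosis effector Bak1 (0.34) and the autophagy genes Gabarapl2 (0.26) and Map1lc3b (0.25) were highest, and the kinase Gsk3b was lowest (-0.38). In the same 77 cells Bak1 had 0.32, Gabarapl2 0.08, Map1lc3b 0.01 and Gsk3b -0.32. Gabarapl2, the binding partner of Gimap6, was present in 82 cells with a median of 113 TPM, and the survival gene Mcl1 in 80 cells with a median of 51.3 TPM. Interferon-inducible GTPases, another GTPase group of immune defence, were mostly sparse. Of 16 genes, 13 were detected in at least 1 cell and 10 reached TPM 10 in at least 1 cell. In at least 20 cells 2 of the 16 were found, as were 9683 of all 20308 genes. These were Irgm1 in 83 cells (r = 0.29) and Irgm2 in 21 (r = 0.17). Gbp7 was found in 17 cells and Gbp9 in 12, while Gbp2 and Tgtp1 were at 0 in all cells.

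The genes next to the family on chromosome 6 did not share its pattern. Of the 5 protein-coding neighbours before Gimap8, Repin1 was detected in 53 cells with r = -0.07 to the family mean, Zfp775 in 9, Lrrc61 in 7, Rarres2 in 3 and Gm5111 in 0. Of the 5 after Gimap3, Tmem176b was detected in 60 cells with a median of 35.4 TPM and r = 0.15, Tmem176a in 36 cells with r = 0.07, and Aoc1, 1600015I10Rik and Doxl2 in 0.

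Members were then compared between cell classes drawn by marker genes. With 1 sample there is no test, and a difference is the mean log2(TPM + 1) of the class minus that of its comparison cells. Differences of 1 log2 unit or more are counted beside the share of 9683 genes that differed as much.

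Mesenchyme-marked cells, with at least 3 of 11 mesenchyme markers at TPM 10, numbered 34, against 50 other cells, with 6 cells at 3 markers and 5 at 2. Gimap4 had a lowest value of 0, a median of 4.80 and a highest value of 635 TPM in the marked cells, against 0, 248 and 1063 TPM in the others. It was detected in 21 of 34 marked cells and in 45 of 50 others, and its difference was -2.97. Gimap6 spanned 2.01 to 887 TPM with a median of 341 in the marked cells, against 4.91 to 1763 TPM with a median of 629 in the others, a difference of -1.20. Gimap5 was detected in 13 of 34 marked cells and 30 of 50 others, a difference of -1.49. The ranges of the classes overlapped for every member. Gimap1 (-0.87), Gimap9 (-0.50) and Gimap8 (0.19) differed by less than 1 unit. Of all genes, 8.06% were lower and 4.22% higher by 1 unit or more, with a median of -0.09, and 3 of the 6 members were lower. Leaving out the 7 cells low in pan-endothelial genes gave -2.50 for Gimap4, -1.21 for Gimap5 and -0.72 for Gimap6.

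Several marker lists moved with this split. The summed pan-endothelial level spanned 6.92 to 5657 TPM with a median of 2863 in marked cells, against 29.98 to 10794 TPM with a median of 4705 in the others. All 11 mesenchyme markers were detected among the marked cells and 10 of 11 among the others, with summed levels of 68.2 to 2847 TPM in marked cells and 0.04 to 105 TPM in the others. Of the list, 7 markers were found in at least 20 cells, and all had a negative r with the family mean, from -0.49 (Col1a2) to -0.23 (Twist1), with a median of -0.42. The summed level of the 18 lymphocyte markers had a median of 27.7 TPM (0 to 294) in marked cells and 135 TPM (0.94 to 521) in the others, with 8 markers detected in marked cells and 10 in the others. Per cell, a median of 1 lymphocyte marker reached TPM 10 in marked cells and 1 in the others. Summed G2M levels had medians of 2255 TPM in marked cells and 1548 TPM in the others, and smooth muscle levels 23.4 TPM in marked cells and 0.155 TPM in the others. The part of any of these lists in the lower Gimap values was not tested.

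The 7 cells with under 10 pan-endothelial genes had lower values of 5 members than the other 77. Gimap6 had a median of 13.6 TPM (2.01 to 395) in the 7 cells, against 518 TPM (8.33 to 1763) in the others, a difference of -4.25. Gimap5 was detected in 0 of the 7 and in 43 of the 77, a difference of -2.72. The differences were -3.48 for Gimap4, -3.10 for Gimap9 and -2.19 for Gimap1. Gimap8 had medians of 7.77 TPM in the 7 cells and 9.72 TPM in the 77, a difference of -0.44. Of all genes 32.2% were lower and 7.55% higher by 1 unit or more, and the median over all genes was -0.51, so a lower value is common in these cells. They also held fewer genes, a median of 5977 against 7040, and a summed mesenchyme level of 105 to 2847 TPM, against 0.04 to 1782 TPM. The part of these in the Gimap values was not tested.

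Artery-gene cells held at least 1 of Gja4, Gja5, Dll4 and Hey2 at TPM 10 and numbered 30, against 54 cells without. Gimap4 had a median of 228 TPM (0 to 713) in artery-gene cells and 107 TPM (0 to 1063) in the rest, a difference of 0.97, or 0.55 without the 7 cells low in pan-endothelial genes. Gimap6 had a median of 626 TPM (155 to 1633) in artery-gene cells and 462 TPM (2.01 to 1763) in the rest, a difference of 0.88, or 0.35 without the 7 cells, which all lay in the rest. None of the 6 members reached 1 unit at the pseudocount of 1 (at 0.1, Gimap4 differed by 1.13), where 5.53% of all genes were higher and 0.744% lower. Gimap3 was detected in 14 of 30 artery-gene cells and 11 of 54 others, a difference of 0.95, while Gimap5 differed by -0.04. The summed lymphocyte markers had medians of 126 TPM in artery-gene cells and 31.97 TPM in the rest. Per cell, a median of 2 of the 18 markers reached TPM 10 in artery-gene cells and 1 in the rest. The part of these markers was not tested.

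Prox1-positive cells (36 at TPM 10, against 43 under TPM 1) were compared next, Prox1 being the transcription factor of lymphatic endothelium. Gimap9 had a median of 37.8 TPM (0 to 279) in the Prox1-positive cells, against 5.40 TPM (0 to 218) in the others, a difference of 1.41. Gimap6 had a median of 562 TPM (26.1 to 1763) in the Prox1-positive cells, against 426 TPM (2.01 to 1711), a difference of 1.13. The other 4 members differed by under 0.5 unit. Over all genes 6.03% were higher and 1.58% lower by 1 unit or more, with a median of 0.13. All 7 cells low in pan-endothelial genes were among the Prox1-negative ones, and without them the differences were 0.98 for Gimap9 and 0.48 for Gimap6. The summed mesenchyme level had medians of 4.37 TPM (0.24 to 917) in Prox1-positive cells and 68.6 TPM (0.04 to 2847) in the others, and the summed lymphocyte markers 141 TPM in Prox1-positive cells and 38.9 TPM in the others. Per cell, a median of 2 of the 18 lymphocyte markers reached TPM 10 in Prox1-positive cells and 1 in the others. The part of the mesenchyme and lymphocyte markers was not tested.

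Stab2-positive cells, marked by a scavenger receptor of sinusoidal and venous endothelium, numbered 16, against 53 with Stab2 under TPM 1. Gimap9 had a median of 95.5 TPM (0 to 279) in Stab2-positive cells, against 8.27 TPM (0 to 218) in the others, a difference of 1.95. Gimap4 had a median of 261 TPM (0 to 713) in Stab2-positive cells, against 74.9 TPM (0 to 1063), a difference of 1.66. Gimap1 had medians of 32.6 TPM in Stab2-positive cells and 11.9 TPM in the others, a difference of 1.26, and Gimap6 had medians of 690 TPM in Stab2-positive cells and 426 TPM in the others, a difference of 1.09. Gimap8 (0.61) and Gimap5 (0.22) differed less. Thus 4 of the 6 members were higher by 1 unit or more, where 9.79% of all genes were higher and 4.06% lower. Without the 7 cells, all of which were Stab2-negative, the differences were 1.62 for Gimap9, 1.28 for Gimap4, 1.05 for Gimap1 and 0.56 for Gimap6. The summed pan-endothelial level was higher in Stab2-positive cells, with a median of 4887 TPM (1505 to 10794) against 3199 TPM (6.92 to 8071), and the summed mesenchyme level lower, 2.03 TPM (0.04 to 1400) against 105 TPM (0.11 to 2847). Their part in the differences was not tested.

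Runx1, the regulator of blood emergence from endothelium, was detected in 10 cells, against 74 without. The 6 members differed by -0.66 (Gimap6) to 0.19 (Gimap5), none reaching 1 unit, where 10.9% of all genes were higher and 4.33% lower. Gimap6 had a median of 317 TPM (13.6 to 887) in the 10 cells and 492 TPM (2.01 to 1763) in the others. The cell with 50974 TPM of summed megakaryocyte or platelet genes was among the 10, and also among the Stab2-positive and the G2M-low cells. In the other 74 cells that sum reached up to 430 TPM, and its median was 0 in both groups. The part of such genes in the Gimap values was not tested. Of the 10, 8 were mesenchyme-marked, with a summed mesenchyme level of 2.84 to 2847 TPM and a median of 347, against 0.04 to 1771 TPM and a median of 5.78 in the others.

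Cells low in cell cycle genes, with under 8 of 16 G2M genes at TPM 10, numbered 20, against 64 others, with 6 cells at 7 genes and 4 at 8. Gimap4 had a median of 7.09 TPM (0 to 623) in the G2M-low cells, against 209 TPM (0 to 1063) in the others, a difference of -2.63. It was detected in 12 of 20 G2M-low cells and 54 of 64 others. Gimap5 was detected in 5 of 20 G2M-low cells and 38 of 64 others, a difference of -1.47. Gimap1 (0.57), Gimap8 (0.15), Gimap6 (0.05) and Gimap9 (-0.21) differed by under 1 unit. Over all genes 13.6% were lower and 1.55% higher by 1 unit or more, with a median of -0.26. The G2M-low cells held a median of 6716 genes, against 7124. Of the 20, 7 were mesenchyme-marked, as were 34 of all 84 cells. The summed mesenchyme level had a median of 8.89 TPM (0.04 to 1400) in the G2M-low cells and 27.6 TPM (0.11 to 2847) in the others. Summed lymphocyte markers had a median of 144.5 TPM (0 to 294) in the G2M-low cells, against 41.2 TPM (0.94 to 521) in the others. Per cell, a median of 1 of the 18 lymphocyte markers reached TPM 10 in the G2M-low cells and 1 in the others. The part of gene number, mesenchyme markers and lymphocyte markers in the Gimap values was not tested. The class depended on the marker threshold. At TPM 1 in place of 10 it held 5 cells, against 79, and the differences were -1.72 for Gimap4, -0.60 for Gimap5, -1.14 for Gimap1 and 1.08 for Gimap8, so that the direction of Gimap1 turned. Without the 7 cells low in pan-endothelial genes the differences were -2.55 for Gimap4 and -1.55 for Gimap5.

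**Figure D5:**
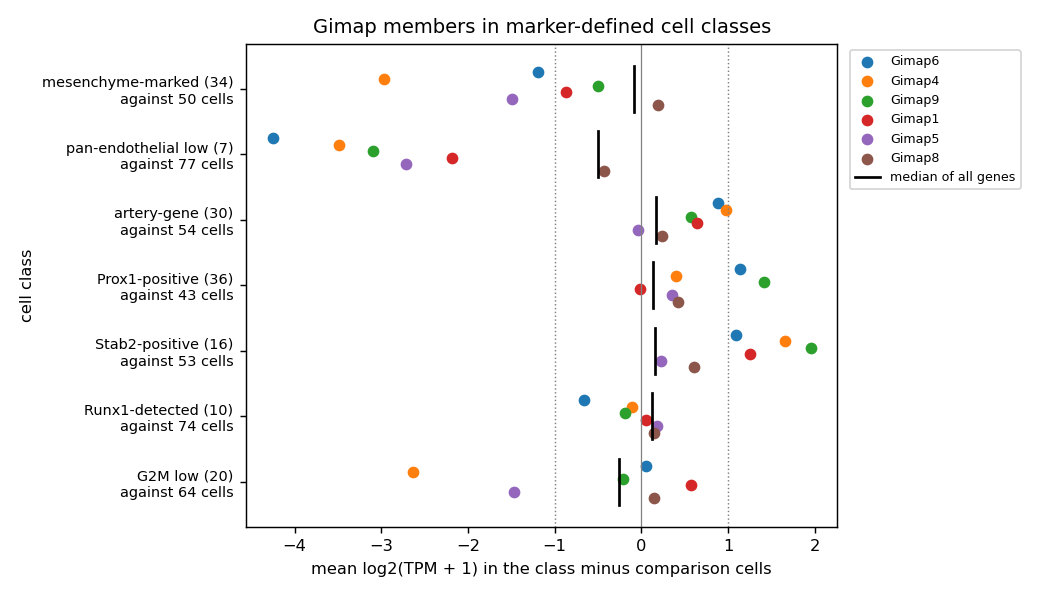
Difference of each member in mean log2(TPM + 1), class minus comparison cells, for 7 cell classes drawn by marker genes, with numbers of cells beside each class. Black bars show the median over 9683 genes and dotted lines 1 log2 unit; Gimap4 lies furthest left in mesenchyme-marked (-2.97) and G2M-low (-2.63) cells, and Gimap9 furthest right in Stab2-positive cells (1.95).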

How the data were processed

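Cells were sorted, captured on a Fluidigm C1 chip, made into full-length SMARTer cDNA and Nextera XT libraries, pooled at 24 per lane and read on an Illumina HiSeq, per the labels' protocols. Tools listed in the submitters' processing notes are RSEM 1.2.3, Bowtie 0.12.9 and CASAVA 1.8.2, with mm10 as the build. Settings and annotation: not given in the sources used here. The authors deposited TPM per gene and cell, with columns summing to between 999998 and 1000002. TPM keeps no depth, so the precision of a single value is unknown.

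Values were used as deposited, with a pseudocount of 1 on the log2 scale. No cell was removed and no doublet caller was run. The members and lists were chosen with earlier results of these data known, so nothing here is an independent test of them. Named genes were the members, the other Gimap genes, the pan-endothelial genes, the 10 most and 5 least like the family mean, the 3 most like each member, of each list the 3 highest and the lowest by r, the most frequent markers of other cell types, and 5 neighbours on either side. Genes ranked were those detected in at least 20 cells. Mcl1 was named after its values were seen, and 1 gene that the rule takes is not reported here. Intervals are exact Clopper-Pearson. Scripts (Python 3.11.15, numpy 2.4.6, pandas 2.3.3, scipy 1.17.1, Biopython 1.88) were tested on simulated data. Alternatives changed the detection threshold, pseudocount, scaling, correlation and cells used. Sequences come from GENCODE M21 transcripts and RefSeq promoters of GRCm38.p6.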

Additional observations from a re-analysis of the deposited data

How the results depend on the processing

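Under alternatives, 365 values were recomputed. Detection shares, median levels and counts among them cannot be negative, so a change of sign was possible only for correlations and class differences. No summary correlation and no class difference of 1 log2 unit or more changed sign. Of 246 recomputed class differences, 18 changed sign, all of them under 1 unit as reported. The widest was Gimap1 in G2M-low cells, 0.57 as reported and -1.14 with markers counted at TPM 1, where that class held 5 cells; there Gimap8 was 1.08 and Gimap5 -0.60. Without the cells low in pan-endothelial genes, Gimap4 in Prox1-positive cells differed by -0.18 and Gimap5 by -0.13. Of 71 recomputed summaries, 52 moved by less and 19 by more than the spread over index sets, or by over 1.5 times for counts. At a detection threshold of TPM 10 the median was 4 members per cell. Without mesenchyme-marked cells the correlation of the family mean with the pan-endothelial mean was 0.51, and within index sets 1 and 3 it was 0.44 and 0.52. The median over member pairs was 0.41, 0.027 and 0.36 within index sets 2, 4 and 7. Of the 10 genes most like the family mean, 5 remained with Spearman's rho, 3 without mesenchyme-marked cells, 5 without cells low in pan-endothelial genes (an alternative chosen after seeing the data), and 0, 2, 0, 0, 0, 1 and 0 within the 7 index sets of 12 cells, so the list depends on which cells are used. Of 42 differences between classes, 16 reached 1 log2 unit. There were 18 with a pseudocount of 0.1, 17 with markers counted at TPM 1 and 10 with a pseudocount of 10, and without cells low in pan-endothelial genes 7 of the 11 that could be recomputed remained. In all, 4 differences reached 1 unit only under an alternative: the G2M-low values of Gimap1 and Gimap8 above and, with a pseudocount of 0.1, Gimap1 in mesenchyme-marked cells (-1.03, -0.87 as reported) and Gimap4 in artery-gene cells (1.13, 0.97 as reported). Of 294 values for single genes, 284 moved by less than the spread between cells, sets or the counting interval, a wide margin that still lets the median of Gimap5 be 11.2 TPM without mesenchyme-marked cells and 1.65 with them. TPM without depth leaves a 0 unresolved between absence and a missed transcript, and 84 cells of 1 sample give no error over embryos. No paired analysis was possible because the cells form 1 group.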
